A study of Homo sapiens with 4 samples.

Results

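The last intron of a human gene, counted in the direction of transcription, was examined in 12009 genes whose last intron was longer than 150 bp and at most 10000 bp. These were chosen by place and length alone, out of 142224 introns listed for 15902 genes with 1 RefSeq transcript each. Of the 14313 genes with at least 2 introns, 1308 had a shorter last intron and 996 a longer one, and these were not members. The introns were measured in SUM159 cells, an established triple-negative breast cancer line, after 12 hours with the spliceosome inhibitor H3B-8800 or its vehicle DMSO. Each group had 2 libraries, described by the submitters as biological duplicates, of polyA-selected RNA from the cytoplasmic fraction, so both groups share the line, the fraction and the selection.

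Splicing removes introns in steps. The U1 particle pairs with the GT that opens the intron. U2, whose SF3b complex is the target of H3B-8800, sits on the branch point near the closing AG. The last intron is removed next to the exon that carries the polyA site, whose recognition and splicing are coupled. In mammals a stop codon followed by an exon junction marks an RNA for nonsense-mediated decay, but a last intron that is kept has no exon junction after it.

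The junctions that a correctly removed last intron leaves behind are shown for 6 of the introns with the strongest evidence of a higher intronic level, because the spliced reads counted below cross these junctions. The last 15 bases of the exon before the intron are in lower case and the first 15 bases of the last exon are in capitals. They come from GENCODE release 29 transcripts on GRCh38, and all 6 lie in coding sequence.
HSP90AA1: tcaaacttggtctggGTATTGATGAAGATG
MAPRE1: ctgtatgccacagatGAAGGCTTTGTGATA
APEX2: gatgcagtcaacctgGAATGCTTTGAAGAG
RBBP7: cagatatggcaaatgGCTGAAAATATTTAC
CPED1: ctggggacatgaaagGCCAGTGGATTGTGC
CSTF1: tggtcagatacacggGCGCGGGTTTAAGTG
In HSP90AA1 the removed intron was chr14:102081822-102082110, minus strand. MAPRE1 had it at chr20:32846771-32848671, plus strand, and APEX2 at chrX:55003869-55006517, plus strand. Those of RBBP7 and CPED1 were chrX:16845104-16845827, minus strand, and chr7:121236832-121244201, plus strand. For CSTF1 it was chr20:56399358-56403467, plus strand. All coordinates are 1-based on hg38 and give the first and last base of the intron.

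Intron sequence could be read only where another annotated transcript keeps the intron inside an exon, which held for 723 last introns. The final 60 bases are shown for 3 of them whose intronic reads rose against their spliced reads and for 4 that gave no such call, because the branch point that SF3b meets lies in this stretch. The closing AG is in capitals, as is each match to CTNAC, a short form of the branch point motif. Matches were sought anywhere in the 60 bases, so a match need not be the branch point. Those of METTL5 and EIF4A2 lie within a few bases of the closing AG. CCNB2 was named by rule. BNIP3, METTL5 and the last 4 were chosen after their values were seen.
BNIP3: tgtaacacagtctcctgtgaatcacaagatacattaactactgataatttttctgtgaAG
METTL5: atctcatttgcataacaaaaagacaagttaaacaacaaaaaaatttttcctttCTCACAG
CCNB2: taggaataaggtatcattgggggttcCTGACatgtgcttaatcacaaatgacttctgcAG
RIN1: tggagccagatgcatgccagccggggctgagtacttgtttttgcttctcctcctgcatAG
EGLN2: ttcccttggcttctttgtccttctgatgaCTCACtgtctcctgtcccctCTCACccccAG
SMARCE1: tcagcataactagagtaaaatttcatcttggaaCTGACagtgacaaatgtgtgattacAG
EIF4A2: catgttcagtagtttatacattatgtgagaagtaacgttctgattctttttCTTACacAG
The first 3 stretches are the ends of chr10:131968570-131970637 on the minus strand, chr2:169811859-169812456 on the minus strand and chr15:59123628-59124766 on the plus strand. The last 4 end chr11:66332753-66333257 on the minus strand, chr19:40807552-40807808 on the plus strand, chr17:40628994-40630713 on the minus strand and chr3:186787883-186789124 on the plus strand.

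Reads counted within an intron are called intronic here and reads counted across its junction spliced. The deposited columns carry no header, and this reading of them was inferred from their values.

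BNIP3, a mitochondrial protein of mitophagy and cell death, had 1190 and 1323 intronic reads in the H3B-8800 libraries and 59 and 60 in the DMSO libraries, with 485 and 529 spliced reads in H3B-8800 libraries and 710 and 687 in DMSO libraries. METTL5, a methyltransferase of ribosomal RNA, had 268 and 252 intronic reads in the H3B-8800 libraries and 22 and 36 in the DMSO libraries, with 114 and 155 spliced reads in H3B-8800 libraries and 551 and 491 in DMSO libraries. In both genes every H3B-8800 library was above every DMSO library in intronic reads and below it in spliced reads. EIF4A2, an RNA helicase of translation initiation, had 358 and 422 intronic reads in the H3B-8800 libraries and 375 and 422 in the DMSO libraries, with 1602 and 1830 spliced reads in H3B-8800 libraries and 1533 and 1633 in DMSO libraries. SMARCE1, a subunit of the BAF chromatin remodelling complex, had 43 and 33 intronic reads in the H3B-8800 libraries and 29 and 31 in the DMSO libraries, with 1079 and 1256 spliced reads in H3B-8800 libraries and 1049 and 977 in DMSO libraries. The groups overlapped in EIF4A2, and in SMARCE1 the H3B-8800 libraries stood a few reads above the DMSO libraries. Both lie inside a transcript that GENCODE annotates as a retained intron. EGLN2, an oxygen sensor of the HIF pathway, had 13 and 21 intronic reads in the H3B-8800 libraries and 22 and 20 in the DMSO libraries, and RIN1, a RAS effector, had 24 and 33 intronic reads in the H3B-8800 libraries and 56 and 35 in the DMSO libraries. Their changes of the intronic-to-spliced ratio were -0.13 ± 0.43 and 0.03 ± 0.49 on the log2 scale (SE), with adjusted p values of 0.813 and 0.966 in edgeR's quasi-likelihood test. BNIP3 and METTL5 stood at 4.86 ± 0.25 and 5.13 ± 0.36 in the same test, with adjusted p values of 2.8e-07 and 1.2e-06.

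Over all 723 last introns with sequence, letters were set beside those of 3790 internal introns with sequence. GC content had a median of 52.1% in last introns and 53.3% in internal ones. GT and AG bounded 98.5% of both kinds. C and T made up a median of 80% of the 20 bases before the closing AG in last introns and 75% in internal introns. A match to CTNAC in the final 60 bases on the transcribed strand was found in 30.7% of last introns and 29.8% of internal introns, against 9.68% and 13.1% on the other strand. CTAAC and CTGAC, both contained in CTNAC, were found in 5.12% and 11.9% of last introns. Within the last introns, CTNAC was present in 22.9% of 131 whose ratio rose and in 34.6% of 52 with no call. A start of GTAAGT or GTGAGT, which pair closely with U1, was found in 29.7% of last introns and 23.5% of internal introns, and in 35.1% of the 131 and 19.2% of the 52. Median GC content was 49.8% in the 131 and 48.2% in the 52. In the reading frame that enters the intron, 627 of 661 last introns with a known frame held a stop codon, at a median of 49 bases from the start of the intron. Internal introns gave 3568 of 3759 at the same median, so the share was 94.9% in both kinds. These introns are the ones that some annotated transcript retains, so the shares describe that subset and not the 12009.

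Depth and identity of the libraries were as follows. The deposited normalization implied 58000000 and 62000000 reads in the H3B-8800 libraries and 64000000 in each DMSO library. The vimentin gene VIM, typical of this mesenchymal line, had 564 and 542 spliced reads per intron, scaled to 1000000 spliced reads over all introns, in H3B-8800 libraries, against 681 and 673 in DMSO libraries. ESR1, PGR, the T cell gene CD3E and the liver gene ALB had 0 in all 4 libraries, and ERBB2 had 2.37 to 3.05. The spread between libraries of a group may be partly technical, and p-values measure only that spread.

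Most last introns gave few reads. No intronic read was found in any library for 5317 of the 12009, no spliced read for 3147, and neither for 2925. In H3B-8800 libraries 5152 and 5325 last introns had at least 1 intronic read, against 4060 and 4059 in DMSO libraries. Intronic reads were present in both H3B-8800 libraries and absent from both DMSO libraries for 659 last introns, and the reverse held for 100. The same count was not made for introns at other places, so these numbers show nothing particular to last introns. Over introns of every place, intronic reads rose in 48.2% of the 12013 tested below. The median length was 1403 bp, with quartiles of 626 and 2898 bp. In the annotation, 11345 (94.5%) interrupt coding sequence, 520 lie in the 3' UTR, 90 in the 5' UTR, and 54 are introns of no annotated coding transcript. No annotated exon of either strand overlapped 8154 of them (67.9%), and these are called exon-free below, since reads inside them cannot come from an annotated exon. An intron that lies within a longer exon of another transcript counts as overlapped. The 723 last introns with sequence and the 422 annotated as retained are therefore not exon-free.

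**Figure D1:**
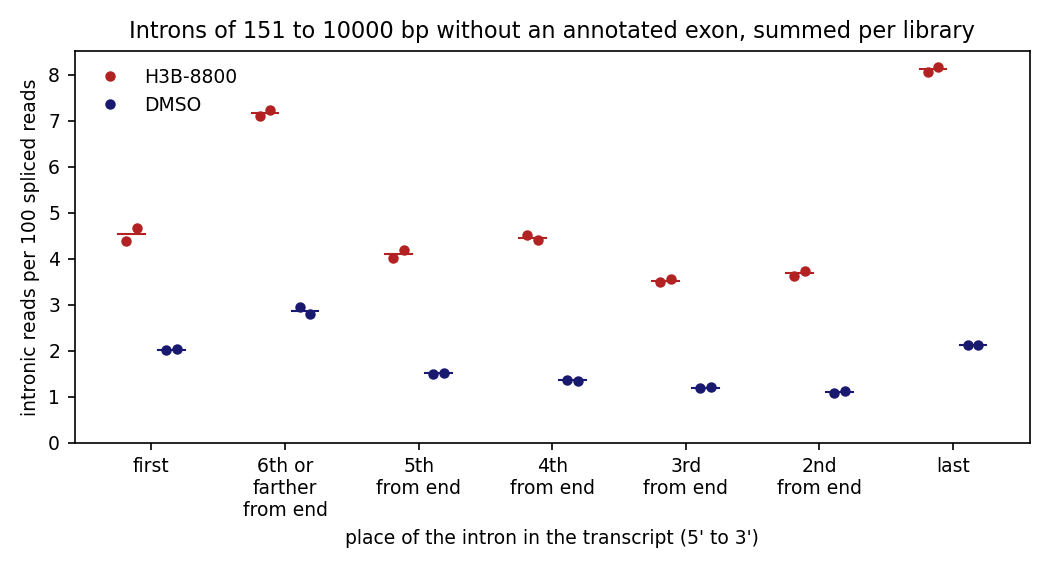
Intronic reads per 100 spliced reads (y axis), summed over exon-free introns of up to 10000 bp at each place in the transcript (x axis, 5' to 3'), with 1 point per library and a line at the group mean. The H3B-8800 libraries, in red to the left, stand at 8.06 and 8.17 in last introns and the DMSO libraries, in dark blue to the right, at 2.12 and 2.12, and no place has overlapping groups.

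Summed over all 12009 last introns, 12.4 and 12.2 intronic reads were counted per 100 spliced reads in H3B-8800 libraries, against 4.73 and 4.87 in DMSO libraries. The means were 12.3 ± 0.15 in H3B-8800 libraries and 4.80 ± 0.0946 in DMSO libraries (n = 2 each, SD), and their quotient was 2.56. Both H3B-8800 libraries were above both DMSO libraries, and the exact two-sided permutation test gave p = 0.333, the smallest value that 2 libraries against 2 allow. That p was the same for every pooled comparison given here. In the 8154 exon-free last introns the values were 8.06 and 8.17 in H3B-8800 libraries, against 2.12 and 2.12 in DMSO libraries, a ratio of 3.82. The change lay in the intronic reads, which were 3.61 times as high per library total with H3B-8800 as with DMSO, while spliced reads were 0.945 times as high. Last introns that overlap an annotated exon had 16.2 with H3B-8800 and 7.30 with DMSO, a ratio of 2.21.

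A few introns supply much of the pooled signal. The 10 last introns with the most intronic reads in each library held 17.5% and 17.03% of the intronic reads in H3B-8800 libraries and 28.6% and 30.3% in DMSO libraries. The 3 with the most, seen only after the values were known, all overlap an annotated exon on the same strand. APOO, a mitochondrial apolipoprotein-like gene, had 10257 and 8950 intronic reads in H3B-8800 libraries, against 7810 and 9360 in DMSO libraries, in a 3' UTR intron. CSNK2A2, a catalytic subunit of casein kinase 2, had 7642 and 8025 in H3B-8800 libraries, against 5964 and 5766 in DMSO libraries. KHSRP, an RNA-binding splicing and decay factor, had 4744 and 5768 in H3B-8800 libraries, against 5534 and 5926 in DMSO libraries. Raw intronic counts overlapped between the groups in APOO and KHSRP. Spliced reads of APOO were 99 and 92 in H3B-8800 libraries, against 184 and 157 in DMSO libraries, and those of KHSRP 18 and 24 in H3B-8800 libraries, against 64 and 84 in DMSO libraries. The ratio of intronic to spliced reads rose in both, by 1.0 ± 0.23 in APOO and 1.68 ± 0.29 in KHSRP on the log2 scale (SE; edgeR adjusted p = 0.0033 and 4.3e-04). CSNK2A2 had 96 and 103 spliced reads in H3B-8800 libraries, against 79 and 104 in DMSO libraries. Its ratio change of 0.29 ± 0.24 was not called (edgeR adjusted p = 0.311). Without the 1% of last introns with the most intronic reads (120 introns) the pooled ratio was 2.94.

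By place in the message, coding exon-free last introns had 8.24 intronic reads per 100 spliced with H3B-8800 and 2.14 with DMSO. Exon-free last introns of the 3' UTR had 5.36 with H3B-8800 and 1.67 with DMSO, a ratio of 3.22. The 62 exon-free last introns in 5' UTRs had 6.42 with H3B-8800 and 2.01 with DMSO. All 520 3' UTR introns, with those that overlap an annotated exon, had 41.3 ± 2.74 with H3B-8800 and 26.3 ± 1.49 with DMSO, a ratio of 1.57. Each of these classes was higher in both H3B-8800 libraries. The 422 last introns that the annotation already gives as retained had 6.98 with H3B-8800 and 2.54 with DMSO.

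Compared with other places and pooled over lengths, exon-free last introns had the highest ratio of H3B-8800 to DMSO and the highest level with H3B-8800. The level did not hold in every length class, as given below. Introns next to last had 3.68 with H3B-8800 and 1.11 with DMSO, a ratio of 3.30. The ratio was 2.94 at the third place from the end, 3.29 at the fourth, 2.70 at the fifth and 2.49 farther upstream, and 2.24 in first introns. These values did not fall evenly with distance, since the fourth place stood above the third. In genes with at least 7 introns, each of which has all of these places, the ratio was 3.77 for the last intron, then 3.51, 3.04, 3.45, 2.76 and 2.49 going upstream. The differences between last and other introns, as log2 of the ratios, were 0.77 against first introns and 0.52 against internal introns, and the groups did not overlap in either. With introns that overlap an annotated exon included, the difference was 0.62 against first introns but 0.08 against internal introns. There the log2 of last over internal introns was 0.78 and 0.72 in H3B-8800 libraries, against 0.65 and 0.70 in DMSO libraries. The gap between last and internal introns appeared in exon-free introns and was close to 0 without that restriction.

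The last intron and its neighbour were also set side by side within 4343 genes in which both were exon-free and in range. Last introns of these genes had 9.95 with H3B-8800 and 2.77 with DMSO, a ratio of 3.59. The introns just before them had 4.64 with H3B-8800 and 1.42 with DMSO, a ratio of 3.27. Last introns carried more intronic reads than their neighbours in both groups, and the treatment difference between them was 0.14 on the log2 scale.

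**Figure D2:**
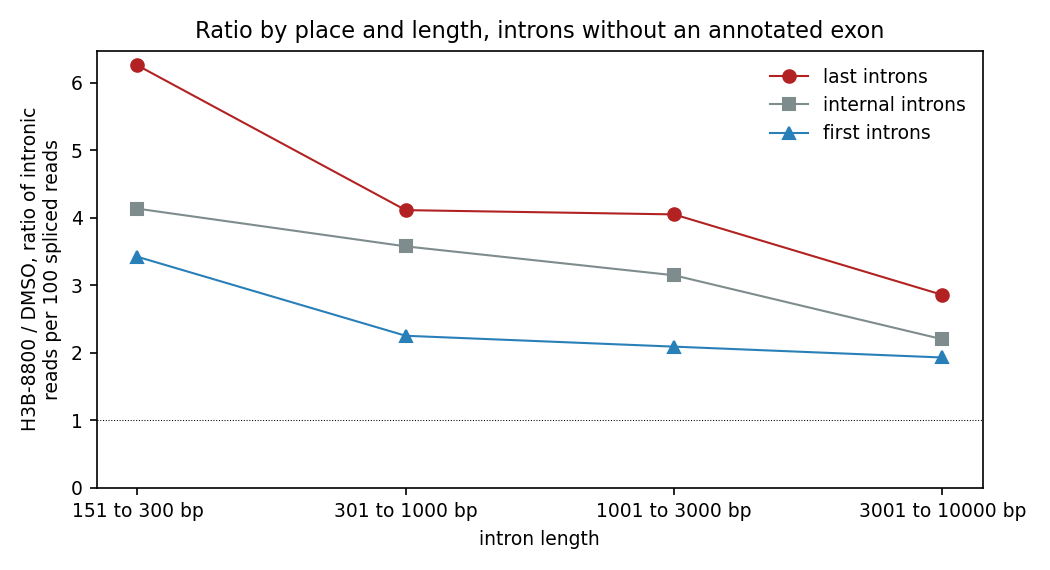
Ratio of H3B-8800 to DMSO in pooled intronic reads per 100 spliced reads (y axis) for exon-free last, internal and first introns in 4 length classes (x axis). Last introns lie highest in each class, at 6.26 in the shortest and 2.86 in the longest, and the dotted line marks a ratio of 1.

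The size of the difference varied with length. Exon-free last introns of at most 300 bp had 3.84 and 3.97 intronic reads per 100 spliced with H3B-8800, and their ratio to DMSO was 6.26. Internal introns of that length had a ratio of 4.14 and first introns 3.42. Above 300 and up to 1000 bp, last introns had a ratio of 4.11, internal introns 3.58 and first introns 2.25. It was 4.05, 3.15 and 2.09 in the same order above 1000 and up to 3000 bp, and 2.86, 2.20 and 1.93 above that. In log2 terms the last introns stood 0.60, 0.20, 0.36 and 0.38 above internal introns from the shortest class to the longest. The levels of last introns themselves were higher in longer introns in both groups, at 3.90 with H3B-8800 and 0.624 with DMSO in the shortest class and 14.9 with H3B-8800 and 5.21 with DMSO in the longest. In the longest class internal introns stood above last introns, at 15.5 with H3B-8800 and 7.05 with DMSO. In the shortest class first introns did, at 4.75 with H3B-8800 and 1.39 with DMSO. In the classes between, last introns had the highest level with H3B-8800, at 4.56 and 11.7. Since these levels are not divided by length, a longer intron can gather more intronic reads beside the same junction.

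Among well covered introns, those with a mean of at least 100 spliced reads, the share of intronic reads can be compared without a test. It was higher in both H3B-8800 libraries than in both DMSO libraries for 1333 of 2447 last introns (54.5%), and lower for 78 (3.19%). Over all 20018 introns at that depth the shares were 37.3% higher and 4.08% lower. First introns gave 39.5% higher and internal introns 35.1%. Among exon-free introns the shares higher were 47.2% of 1450 last introns, 31.0% of first introns and 26.8% of internal introns. The median share of intronic reads in these last introns was 2.12% with H3B-8800 and 0.602% with DMSO. This way of counting was added after the data had been seen.

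Single introns were then tested. In edgeR's quasi-likelihood test of intronic against spliced reads, for which both kinds of read had to average 10 or more, 1693 of the 12009 last introns could be tested, 721 of them exon-free. The ratio rose in 1181 at an adjusted p under 0.05 (69.8%) and fell in 20 (1.18%), and 492 gave no call. Over all 9937 introns tested, 56.5% rose and 2.88% fell. Tested last introns had a median log2 change of 2.07, and all tested introns 1.62. The need for intronic reads favours introns that are high in a group. Another filter asked for at least 100 spliced reads on average and 1 intronic read in any library. With it 520 of 2199 last introns rose and 2 fell, against 2159 and 28 of 15548 introns. Introns with no intronic read were still left out. With each kind of read scaled to its own library composition, which centres a shared rise, 517 last introns rose and 143 fell, against 2084 and 1550 of all 9937 introns, and the median change of last introns was 0.67. DESeq2 gave 10 falls in place of 20, and without H3B-8800 replicate 1 or 2 edgeR gave 10 and 9.

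Of the 1181 rises, 868 were at least 4-fold and 226 at least 16-fold, and 530 were exon-free. Intronic reads outnumbered spliced reads in both H3B-8800 libraries in 357 of them, and in both DMSO libraries in 73. The intronic reads themselves rose in 1031 of the 1181, fell in 1 and gave no call in 149. Their spliced reads rose in 271, fell in 312 and gave no call in 598. Among these 1181, a higher ratio came with more intronic reads in most and with fewer junction reads in a minority. The same counts were not made over the 5613 rises among all tested introns, so they show nothing particular to last introns.

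**Figure D3:**
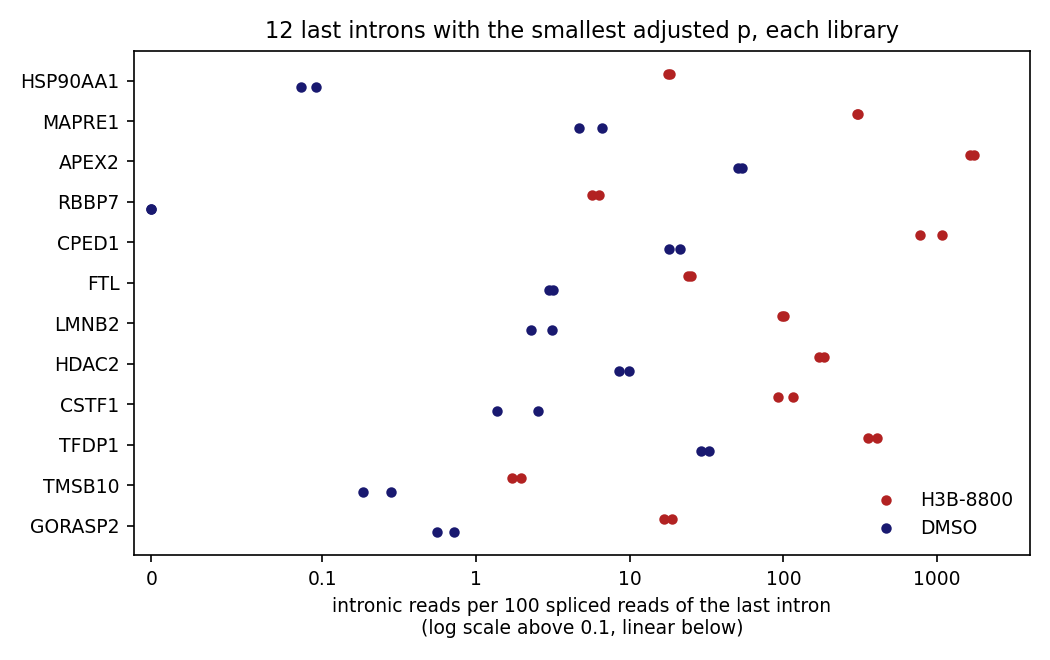
Intronic reads per 100 spliced reads (x axis, log scale above 0.1 and linear below) in each library for the 12 exon-free last introns with the smallest adjusted p among rises (y axis). In every gene both H3B-8800 libraries (red, upper) lie to the right of both DMSO libraries (dark blue, lower), from TMSB10 at 1.72 and 1.96 with H3B-8800 to APEX2 above 1000.

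Exon-free rises are described next for the 12 genes with the smallest adjusted p. HSP90AA1 encodes the inducible form of the cytosolic chaperone HSP90, and its last intron of 289 bp had 559 and 602 intronic reads in the H3B-8800 libraries and 4 and 4 in the DMSO libraries. Its junction to the last exon had 3130 and 3297 spliced reads in H3B-8800 libraries and 4560 and 4155 in DMSO libraries. This is 17.9 and 18.3 per 100 in H3B-8800 libraries, against 0.0877 and 0.0963 in DMSO libraries, a log2 change of 7.57 ± 0.32 (SE; edgeR adjusted p = 8.0e-08). The intron was nearly absent from the DMSO libraries, and its other introns together had 0.107 and 0.130 per 100 in H3B-8800 libraries, against 0.0518 and 0.0357 in DMSO libraries.

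MAPRE1 encodes EB1, a protein that tracks the growing ends of microtubules. Its last intron had 2119 and 2323 intronic reads in the H3B-8800 libraries and 67 and 48 in the DMSO libraries, against 692 and 770 spliced reads in H3B-8800 libraries and 1014 and 1019 in DMSO libraries. With H3B-8800 this intron of 1901 bp had more reads than its junction. It had 306 and 302 per 100 in H3B-8800 libraries, against 6.61 and 4.71 in DMSO libraries, a log2 change of 5.75 ± 0.26 (edgeR adjusted p = 1.3e-07). The other 5 introns of MAPRE1 together had 0.348 and 0.241 per 100 in H3B-8800 libraries, against 0.148 and 0 in DMSO libraries, at most 0.348 in any library. APEX2, an endonuclease of base excision repair, had 1190 and 1207 intronic reads in the H3B-8800 libraries and 88 and 74 in the DMSO libraries. Spliced reads of the same intron were lower with the drug, 73 and 70 spliced reads in H3B-8800 libraries and 173 and 137 in DMSO libraries, a log2 change of -0.79 (edgeR adjusted p = 0.0012). Its ratio change was 5.0 ± 0.28 (edgeR adjusted p = 4.7e-07).

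RBBP7, a histone chaperone found in several chromatin complexes, had 135 and 154 intronic reads in the H3B-8800 libraries and 0 and 0 in the DMSO libraries. Taking 3 reads over both DMSO libraries as the most that 0 allows, the level was at least 166-fold higher with H3B-8800, 6.01 per 100 against at most 0.0362. The other introns of RBBP7 together had 7.93 and 6.85 per 100 in H3B-8800 libraries, against 0.669 and 0.771 in DMSO libraries, so both groups stood higher there than in the last intron. RBBP7 was among 32 rises with no intronic read in either DMSO library. E2F6, a repressor of E2F target genes, CD55, a complement regulator, and CANT1, a nucleotidase, which follow it by this bound and were chosen after their values were seen, were at least 53.1-, 52.4- and 47.2-fold higher. In E2F6 the DMSO junction counts were only 14 and 4, so its bound rests on few reads. These bounds cover counting error only. An intron with no DMSO read was tested only if its H3B-8800 reads were high, so the filter set the direction of these 32. Such introns were not counted at other places, so the 32 show nothing particular to last introns.

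Among nuclear and cell cycle genes, LMNB2, which encodes lamin B2 of the nuclear envelope, had 101 and 98.0 per 100 in H3B-8800 libraries, against 2.27 and 3.12 in DMSO libraries. HDAC2, a histone deacetylase, had 182 and 171 per 100 in H3B-8800 libraries, against 9.94 and 8.53 in DMSO libraries, and TFDP1, the partner of E2F factors, 405 and 353 per 100 in H3B-8800 libraries, against 29 and 32.8 in DMSO libraries. In these 3 genes the intron had about as many reads as its junction or more with H3B-8800, and fewer than its junction with DMSO. CSTF1, a subunit of the cleavage stimulation factor that acts at the polyA site, had 115 and 92.0 per 100 in H3B-8800 libraries, against 1.38 and 2.52 in DMSO libraries. Its spliced reads, scaled by TMM, also rose, by 0.48 on the log2 scale (edgeR adjusted p = 0.0016). Their raw counts overlapped, at 283 and 348 in H3B-8800 libraries and 290 and 278 in DMSO libraries. CPED1, a gene with a cadherin-like domain, had 1072 and 768 per 100 in H3B-8800 libraries, against 17.9 and 21.2 in DMSO libraries, and its spliced reads fell by 1.29 (edgeR adjusted p = 1.4e-05). The ratio changes of these 5 genes ran from 3.61 in TFDP1 to 5.70 in CSTF1, with edgeR adjusted p values of 1.3e-06 and 1.2e-06.

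FTL, the ferritin light chain, had the most junction reads of the 12 after TMSB10, with 8452 and 9678 spliced reads in H3B-8800 libraries and 8157 and 7989 in DMSO libraries. Its 176 bp last intron had 2107 and 2333 intronic reads in the H3B-8800 libraries and 243 and 253 in the DMSO libraries, a ratio change of 3.0 ± 0.19 (edgeR adjusted p = 6.4e-07). TMSB10, which binds actin monomers, had 588 and 699 intronic reads in the H3B-8800 libraries and 74 and 108 in the DMSO libraries beside 34136 and 35741 spliced reads in H3B-8800 libraries and 40012 and 38512 in DMSO libraries. This rise left the intron of TMSB10 below 2 per 100 spliced reads. GORASP2, a Golgi stacking protein, had 18.9 and 16.8 per 100 in H3B-8800 libraries, against 0.558 and 0.721 in DMSO libraries. FTL, TMSB10 and HSP90AA1 have near-identical copies elsewhere in the genome, so their spliced counts are uncertain where reads were shared.

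Falls of the ratio were few, and 6 of the 20 were in exon-free introns. Those with the smallest adjusted p differ in which reads moved. ARHGEF18, a guanine nucleotide exchange factor, has its last intron in the 3' UTR, with 59 and 25 intronic reads in the H3B-8800 libraries and 94 and 74 in the DMSO libraries and 50 and 53 spliced reads in H3B-8800 libraries and 13 and 8 in DMSO libraries. Its junction reads rose by 2.61 on the log2 scale (edgeR adjusted p = 3.7e-06), and its ratio fell by 3.36 (edgeR adjusted p = 4.1e-04). ME1, the cytosolic malic enzyme, had 2 and 2 intronic reads in the H3B-8800 libraries and 16 and 30 in the DMSO libraries in an exon-free intron, while its junction stood at 253 and 264 spliced reads in H3B-8800 libraries and 330 and 321 in DMSO libraries. Its ratio fell by 3.10 (edgeR adjusted p = 0.0019).

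KPNA4, an importin of nuclear transport, had 5 and 4 intronic reads in the H3B-8800 libraries and 21 and 14 in the DMSO libraries, and CAMLG, a receptor for tail-anchored proteins in the endoplasmic reticulum, had 8 and 8 intronic reads in the H3B-8800 libraries and 30 and 25 in the DMSO libraries. PRKCSH, a subunit of glucosidase II, had 234 and 179 per 100 in H3B-8800 libraries, against 475 and 506 in DMSO libraries in a 3' UTR intron that overlaps an annotated exon. RPL5, of the large ribosomal subunit, had 20 and 18 intronic reads in the H3B-8800 libraries and 36 and 38 in the DMSO libraries. The ratio changes of these 4 ran from -2.51 in KPNA4 to -1.23 in RPL5, with edgeR adjusted p values between 0.002 and 0.005. Without H3B-8800 replicate 2 the adjusted p was 0.063 in CAMLG and 0.056 in PRKCSH in the same edgeR test. With no filter beyond 1 read all 4 lost the call, at edgeR adjusted p values of 0.064 in KPNA4, 0.135 in CAMLG, 0.211 in PRKCSH and 0.081 in RPL5.

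When intronic reads were tested alone with edgeR, scaled by library totals, 1190 of 1898 last introns with enough reads rose (62.7%) and 56 fell (2.95%). Over all 12013 introns tested, 48.2% rose and 5.74% fell. With 1 H3B-8800 library left out no intron of any place passed the adjusted threshold in this fit, and 763 and 738 last introns rose at an unadjusted p under 0.05. Without either DMSO library 1257 rose. Spliced reads, scaled by TMM, rose in 1652 of 6111 last introns (27.0%) and fell in 1202 (19.7%), against 21.5% and 21.7% of 66136 introns. Scaled by library totals instead, 994 rose and 1805 fell, so which direction held the majority turned with the scaling. The spliced test also gave no call without either H3B-8800 library, and 1387 and 1393 last introns then rose at an unadjusted p under 0.05.

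**Figure D4:**
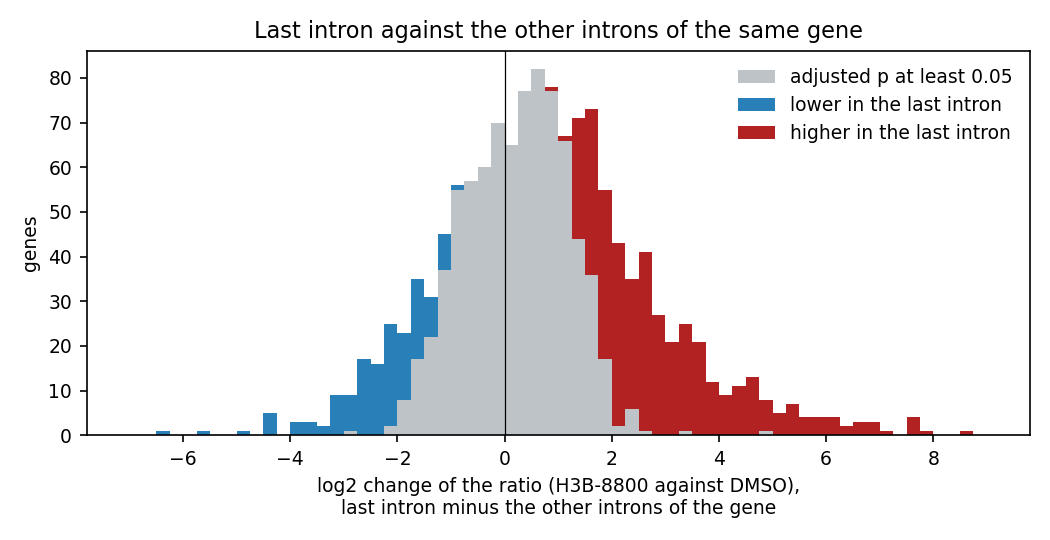
Number of genes (y axis) by the log2 change of the last intron's ratio minus that of the other introns of the same gene (x axis), for 1342 genes. Genes called higher in the last intron (red, 398) lie to the right and those called lower (blue, 140) to the left, and grey marks genes with an adjusted p of at least 0.05.

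The change of the last intron was also tested against the summed other introns of the same gene. In 398 of 1342 genes with enough reads (29.7%) the ratio rose more, or fell less, in the last intron, and in 140 (10.4%) the reverse held, at an adjusted p under 0.05 in edgeR's quasi-likelihood test. The median difference was 0.69 on the log2 scale. The same test over the last introns of all lengths, 1562 genes, called 29.1% and 10.8%, of which these genes are the larger part. In exon-free last introns the calls were 211 and 47 of 577. Against the second to last intron alone they were 78 and 44 of 486 genes, with a median difference of 0.31, and against other introns in the same length range that were not first introns they were 212 and 106 of 1006. Without H3B-8800 replicate 1 the calls were 233 and 75, and without replicate 2 they were 226 and 60.

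In the genes with the smallest adjusted p for a higher last intron, the rest of the gene stood low. RBM3, a cold-induced RNA-binding protein, had 70.6 and 63.2 per 100 in H3B-8800 libraries, against 10.1 and 9.24 in DMSO libraries in its last intron, which lies in the 3' UTR and overlaps an exon of another transcript. Its other introns had 2.15 and 2.24 per 100 in H3B-8800 libraries, against 2.47 and 2.76 in DMSO libraries, so the last intron was higher with H3B-8800 and the rest slightly lower. OSBPL1A, a sterol-binding protein of endosomes, had 264 and 313 intronic reads in the H3B-8800 libraries and 0 and 2 in the DMSO libraries in its exon-free last intron. Its other introns had 1.92 and 1.43 per 100 in H3B-8800 libraries, against 1.74 and 2.38 in DMSO libraries. The differences were 3.04 ± 0.24 in RBM3 and 7.94 ± 0.74 in OSBPL1A, with edgeR adjusted p values of 3.1e-11 and 1.1e-09. CPED1, named above, was also among them, with 4.50 ± 0.43 (edgeR adjusted p = 1.3e-09), although its other introns also stood at 72.1 and 67.0 per 100 in H3B-8800 libraries, against 35.3 and 33.9 in DMSO libraries.

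In the opposite direction the other introns stood higher with H3B-8800 than with DMSO and the last intron lower. VPS37A, a subunit of the ESCRT-I complex, had 24.1 and 22.0 per 100 in H3B-8800 libraries, against 37.2 and 37.1 in DMSO libraries in its last intron. Its other introns had 14.9 and 12.5 per 100 in H3B-8800 libraries, against 1.25 and 0.879 in DMSO libraries. P2RX5, an ATP-gated ion channel, had 129.7 and 61.5 per 100 in H3B-8800 libraries, against 244 and 203 in DMSO libraries in its last intron. Its other introns had 17.1 and 17.5 per 100 in H3B-8800 libraries, against 0.709 and 0.830 in DMSO libraries. NAXE, an epimerase that repairs damaged NADPH, had 8.49 and 5.47 per 100 in H3B-8800 libraries, against 10.2 and 9.66 in DMSO libraries in its last intron. Its other introns had 13.5 and 13.2 per 100 in H3B-8800 libraries, against 1.09 and 0.605 in DMSO libraries. ARHGEF18 showed the same, with 6.02 and 5.05 per 100 in H3B-8800 libraries, against 1.33 and 0 in DMSO libraries in its other introns. All 4 last introns overlap an annotated exon on their own strand. Their differences ran from -6.31 in ARHGEF18 to -4.37 in VPS37A, with edgeR adjusted p values of 6.3e-07 and 1.3e-08. The last intron's own ratio change was not called in VPS37A (-0.69, edgeR adjusted p = 0.057) or NAXE (-0.52, edgeR adjusted p = 0.373). In P2RX5 it was called in edgeR (-1.31, adjusted p = 0.027) but not with DESeq2 (adjusted p = 0.0946).

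Some last introns already had many reads beside their junction reads without drug. PTPN1, a tyrosine phosphatase of insulin signalling, had 315 and 374 per 100 in H3B-8800 libraries, against 141 and 157 in DMSO libraries in an exon-free last intron, and its ratio rose by 1.21 ± 0.23 (edgeR adjusted p = 9.1e-04), a direction that turned to -0.21 with each kind of read scaled to its own composition. WDR13, a WD-repeat protein, had 226 and 208 per 100 in H3B-8800 libraries, against 55.6 and 50 in DMSO libraries and rose by 2.03 ± 0.31 (edgeR adjusted p = 2.1e-04), against 0.61 with an adjusted p of 0.111 in that scaling. WDR53, of the same domain family, had 112 and 102 per 100 in H3B-8800 libraries, against 77.6 and 43.1 in DMSO libraries, with an adjusted p of 0.079 in the same edgeR test, and its change was -0.56 in the other scaling.

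Other exon-free last introns with many reads had a ratio change near 0, which depended on the scaling. MTHFD2, a mitochondrial enzyme of folate metabolism, had 74 and 94 intronic reads in the H3B-8800 libraries and 61 and 74 in the DMSO libraries, or 11.7 and 13.2 per 100 in H3B-8800 libraries, against 13.1 and 14.0 in DMSO libraries. IRAK1, a kinase of innate immune signalling, had 12.8 and 12.1 per 100 in H3B-8800 libraries, against 15.6 and 13.6 in DMSO libraries, although its other introns had 3.33 and 4.05 per 100 in H3B-8800 libraries, against 0.740 and 0.875 in DMSO libraries. SMS, spermine synthase, had 14.7 and 17.2 per 100 in H3B-8800 libraries, against 13.2 and 13.9 in DMSO libraries. Their ratio changes were -0.12 ± 0.28, -0.23 ± 0.28 and 0.23 ± 0.23 (edgeR adjusted p = 0.723, 0.503 and 0.398). With each kind of read scaled to its own composition all 3 fell, by 1.54, 1.65 and 1.19 in the same order (edgeR adjusted p = 9.7e-04, 5.1e-04 and 9.1e-04). In IRAK1 the last intron differed from the rest of the gene by -2.41 ± 0.42 (edgeR adjusted p = 3.1e-05).

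By function, ribosomal protein genes gave the most testable last introns. Counts for these and the following lists stand beside 69.8% of all tested last introns that rose and 1.18% that fell, and no list was tested against that share. Of 34 large-subunit members 22 were tested, 18 rose and 2 fell, with a median change of 1.60. Of 20 small-subunit members 19 were tested, 15 rose and 1 fell, with a median of 2.57. RPL27A had 2.30 and 2.26 per 100 in H3B-8800 libraries, against 0.159 and 0.159 in DMSO libraries. RPS24 had 1.98 and 2.15 per 100 in H3B-8800 libraries, against 0.174 and 0.142 in DMSO libraries while its spliced reads rose by 0.50 on the log2 scale (edgeR adjusted p = 2.3e-09). RPL41 had 3.33 and 2.74 per 100 in H3B-8800 libraries, against 0.278 and 0.225 in DMSO libraries in the last intron, whereas its single other intron had 11.2 and 11.9 per 100 in H3B-8800 libraries, against 10.3 and 13.5 in DMSO libraries, with groups that overlap. The ratio rises of these 3 genes ran from 3.57 in RPL41 to 3.84 in RPL27A, with edgeR adjusted p values of 4.9e-06 and 4.7e-07. The falls were RPL5, RPL34 and RPS3, the last pair named after their values were seen. Levels stayed low in this group, at a few reads per 100 junction reads, and many of these genes have processed copies and small nucleolar RNA genes in their introns, so their counts are uncertain.

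Translation factors rose in 12 of 15 tested of 36 members, with none lower. EIF3G, a subunit of the initiation factor eIF3, had 62.8 and 60.9 per 100 in H3B-8800 libraries, against 2.49 and 0.929 in DMSO libraries in an intron that overlaps an annotated exon of the opposite strand. PABPC1, the cytoplasmic polyA-binding protein, had 6.80 and 5.46 per 100 in H3B-8800 libraries, against 0.232 and 0.407 in DMSO libraries in a 3' UTR intron. Their rises were 5.21 ± 0.40 and 4.25 ± 0.28 (edgeR adjusted p = 1.9e-06 and 7.6e-07).

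The splicing machinery gave few testable members. Of 17 members among SF3b, SF3a and U2 proteins only SNRPA1 was tested, the U2 protein A', with 19.2 and 21.6 per 100 in H3B-8800 libraries, against 5.18 and 2.80 in DMSO libraries and a rise of 2.34 ± 0.36 (edgeR adjusted p = 2.0e-04). Of 41 members among other spliceosome proteins 10 were tested and 9 rose. SNRNP70, of the U1 particle, had 26.2 and 26.5 per 100 in H3B-8800 libraries, against 5.33 and 4.70 in DMSO libraries, and its spliced reads fell by 0.72 (edgeR adjusted p = 1.5e-06). PRPF19, which activates the spliceosome, had 28.5 and 27.7 per 100 in H3B-8800 libraries, against 5.87 and 6.78 in DMSO libraries. With each kind of read scaled to its own composition the rises of SNRPA1 and PRPF19 were 0.93 and 0.73 and no longer passed (edgeR adjusted p = 0.057 and 0.090). Among SR and hnRNP proteins 10 of 14 tested rose, close to the 69.8% of all tested last introns, and 2 fell, HNRNPDL and PCBP2, both named after their values were seen. TARDBP, which encodes TDP-43, had 172 and 203 per 100 in H3B-8800 libraries, against 25.7 and 19.9 in DMSO libraries in an exon-free last intron, and HNRNPA2B1 had 5.92 and 4.24 per 100 in H3B-8800 libraries, against 0.494 and 0.612 in DMSO libraries in a 3' UTR intron of 156 bp. Among decay, exon junction and export factors 6 of 9 tested rose, also close to that share, among them MAGOHB, a core protein of the junction complex, with 166 and 121 per 100 in H3B-8800 libraries, against 3.81 and 1.31 in DMSO libraries, and THOC3, of the export complex THO, with 22.6 and 17.5 per 100 in H3B-8800 libraries, against 4.08 and 1.88 in DMSO libraries. MAGOHB spliced reads fell by 0.92 (edgeR adjusted p = 7.4e-06). Against the gene's other introns, PRPF19 differed by -1.38, HNRNPA2B1 by -0.82 and THOC3 by -0.51 (edgeR adjusted p = 0.131, 0.137 and 0.545). SNRPA1, SNRNP70 and MAGOHB differed from theirs by 1.48, 1.36 and 5.32 (edgeR adjusted p = 0.024, 0.011 and 1.7e-07). With no filter beyond 1 read SNRPA1 and SNRNP70 lost that call (edgeR adjusted p = 0.118 and 0.054).

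In the replication list 8 of 10 tested last introns rose, of 42 members. MCM5, a subunit of the replicative helicase, had 165 and 185 intronic reads in the H3B-8800 libraries and 45 and 51 in the DMSO libraries. Its junction reads fell to 259 and 320 in H3B-8800 libraries, against 767 and 834 in DMSO libraries, a log2 change of -1.14 (edgeR adjusted p = 1.3e-08). MCM6, of the same helicase, had 50 and 49 intronic reads in the H3B-8800 libraries and 2 and 2 in the DMSO libraries. Their ratios rose by 3.34 ± 0.28 and 5.45 ± 0.62 (edgeR adjusted p = 3.6e-06 and 2.8e-05). Of mitosis and cell cycle genes 10 of 15 tested rose, near the 69.8% of all tested last introns, and 1, NDC80, named after its values were seen, fell. CCNB2, cyclin B2, had 304 and 313 intronic reads in the H3B-8800 libraries and 11 and 10 in the DMSO libraries, while its junction reads rose by 0.93 (edgeR adjusted p = 2.5e-07). CCND1, cyclin D1, had 496 and 486 per 100 in H3B-8800 libraries, against 75 and 68.1 in DMSO libraries in a last intron that overlaps an annotated exon.

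Chaperone last introns rose in 8 of 9 tested of 33 members, with a median of 3.13, where 69.8% of all tested last introns rose with a median of 2.07. AHSA1, an activator of HSP90, had 1498 and 1814 intronic reads in the H3B-8800 libraries and 99 and 62 in the DMSO libraries, and the other introns of the gene had 0.213 and 0.391 per 100 in H3B-8800 libraries, against 0.256 and 0.132 in DMSO libraries. Its ratio rose by 4.59 ± 0.26 (edgeR adjusted p = 4.7e-07). All 7 tested proteasome last introns rose, of 28 members, with a median of 3.95. PSMD8 had 32.1 and 29.1 per 100 in H3B-8800 libraries, against 4.57 and 4.74 in DMSO libraries and PSMD7 48.0 and 41.5 per 100 in H3B-8800 libraries, against 2.82 and 2.90 in DMSO libraries, both of the regulatory particle. Other introns of PSMD8 had 0.928 and 1.19 per 100 in H3B-8800 libraries, against 0.0657 and 0.102 in DMSO libraries. The last intron of PSMD8 differed from these by -0.91 (edgeR adjusted p = 0.209). In PSMD7 the difference from the gene's other introns was 1.84 (edgeR adjusted p = 0.0057). Against those in the same length range that were not first it was 0.18 (edgeR adjusted p = 0.861). In the cytoskeleton list 19 of 24 tested rose, of 40 members, with none lower and a median of 2.26.

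Stress, death and sensing genes had few tested members. In glycolysis 2 of 3 tested rose, PGAM1 with 51 and 50 intronic reads in the H3B-8800 libraries and 5 and 9 in the DMSO libraries, and ENO1 with 43 and 47 intronic reads in the H3B-8800 libraries and 7 and 15 in the DMSO libraries. Of 5 tested genes of the integrated stress response 2 rose. STC2, a secreted stanniocalcin induced in stress, had 1295 and 1366 intronic reads in the H3B-8800 libraries and 169 and 162 in the DMSO libraries against 40 to 59 spliced reads per library. PPP1R15A, which encodes the phosphatase subunit GADD34, had 104 and 95.2 per 100 in H3B-8800 libraries, against 27.6 and 18.8 in DMSO libraries. In the apoptosis list 2 of 3 tested rose, and RIPK1, a kinase of death receptor signalling, had 49 and 43 intronic reads in the H3B-8800 libraries and 0 and 4 in the DMSO libraries. In the double-stranded RNA list 2 of 4 tested rose: STAU1, an RNA-binding protein, had 137 and 138 per 100 in H3B-8800 libraries, against 13.0 and 15.2 in DMSO libraries, and IRF3, a transcription factor of the interferon response, had 46.5 and 48.6 per 100 in H3B-8800 libraries, against 5.19 and 10.6 in DMSO libraries. Apart from PPP1R15A, the edgeR adjusted p values of these genes ran from 4.7e-06 in STAU1 to 0.0033 in IRF3. In PPP1R15A it was 0.016, and it was 0.075 and 0.052 without H3B-8800 replicates 1 and 2 and 0.068 without DMSO replicate 2. With each kind of read scaled to its own composition ENO1, PPP1R15A and IRF3 no longer passed (edgeR adjusted p = 0.073, 0.46 and 0.18). With no filter beyond 1 read PPP1R15A and IRF3 did not pass (edgeR adjusted p = 0.354 and 0.134). Against the gene's other introns, PGAM1, ENO1 and STC2 differed by -0.22, -0.98 and 1.22 (edgeR adjusted p = 0.845, 0.118 and 0.078). RIPK1 and STAU1 differed from theirs by 3.70 and 2.89 (edgeR adjusted p = 0.0033 and 1.4e-05). Against those in the same length range that were not first, STAU1 differed by 0.26 (edgeR adjusted p = 0.896).

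Tested last introns ordered by the size of the ratio change differed in length and in the exon-free share. The filter on intronic reads can itself tie these features to the ratio change. An intron with few DMSO reads was tested only if its H3B-8800 reads were high. Split into 3 groups of near-equal size, the 565 with the largest changes had a median length of 1478 bp, the middle 563 had 1999 bp, and the 565 with the smallest changes 2555 bp. The exon-free share was 51.9%, 41.2% and 34.7% in the same order. Introns whose ratio rose had a median length of 1783 bp, against 2532.5 bp in those with no call and 2477.5 bp in those that fell. Introns of the 3' UTR made up 5.25% of rises and 5.49% of uncalled introns. These are descriptions of the introns with enough reads, which were longer than the members as a whole, at a median of 1966 bp against 1403 bp.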

How the data were processed

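Per the labels' protocols, strand-specific libraries were made from polyA-selected cytoplasmic RNA. The submitters' processing notes name HISAT2 2.0.4 and the builds hg38 and mm10. The counter and its strand setting are not given in the sources used here, so introns with exons on either strand are uncertain. The deposited files list 2 counts for each intron beside its RPKM, without a header. The first count was taken as intronic reads and the excess of the second as spliced reads, a reading inferred from the values. Library totals were recovered from the deposited RPKM, in which the authors scaled the first count by intron length and library total. Both mates of a pair may have been counted, and reads were not treated as molecules. The annotation was GENCODE release 29 (99.9% of introns matched), and symbols came from RefSeq accessions for 98.4% of genes.

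Counts were tested with edgeR 4.0.16 in R 4.3.3 (quasi-likelihood, Benjamini-Hochberg over all features tested, threshold 0.05) where the mean was at least 10 reads. The ratio model held library terms, a read-kind term and a read-kind by treatment term. SEs were approximated from the F statistic. Alternatives were DESeq2 1.42.0, other filters and scalings, a replicate block and leaving out each library. Scripts were tested on simulated data. Spliced reads were scaled by TMM and intronic reads by library totals.

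Named introns are the 12 exon-free rises and 6 falls with the smallest adjusted p, the 4 genes in each direction of the within-gene test, the first 2 per gene list, the 3 exon-free introns with the highest share of intronic reads with DMSO and the 3 nearest to no change. A gene under 2 parts of the rule counts under both. Some of the introns this rule names are not reported here. The members and the 16 gene lists were chosen with earlier results of these data known. No genome was used here, so sequence came from annotated transcripts that contain the intron.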

Additional observations from a re-analysis of the deposited data

How the results depend on the processing

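The pooled ratio of 2.56 was 3.82 in exon-free introns, 4.42 as a ratio of median shares over 6111 members and 2.94 without the most read 1%, and leaving out a library gave 2.52 to 2.59. The difference from first introns (0.62) and from internal introns (0.08) was 0.77 and 0.52 in exon-free introns. Of single introns, 1181 ratio rises and 20 falls became 528 and 5 in exon-free introns, 517 and 13 with at least 30 reads and 517 and 143 with TMM scaling of each kind of read. They became 520 and 2 with at least 100 spliced reads on average and 1 intronic read in any library (added after seeing the data). There were 10 falls with DESeq2 and 4 falls with no filter beyond 1 read. Intronic rises and falls (1190 and 56) became 540 and 12 in exon-free introns and 645 and 232 with TMM of intronic reads. There were 625 rises with at least 30 reads, 28 falls with DESeq2 and 35 falls with TMM factors of spliced reads. Spliced rises and falls (1652 and 1202) became 1022 and 741 in exon-free introns, 1046 and 694 with DESeq2 and 994 and 1805 with library totals. Within genes, 398 and 140 became 211 and 47 in exon-free introns, 1.5e+02 rises (rounded) and 57 falls with at least 30 reads, 244 and 84 with counts halved, 78 and 44 against the second to last intron, and 212 and 106 against mid-length introns that were not first. Leaving out each library in turn gave 0.59 to 0.65 for first and 0.05 to 0.11 for internal introns, 843 to 1140 ratio rises and 9 to 14 falls, 0 to 1257 intronic rises and 0 to 57 falls, 0 to 1341 spliced rises and 0 to 999 falls, and 226 to 368 within-gene rises and 60 to 113 falls. The counts of 0 came without either H3B-8800 library in edgeR, where the spliced test had 1387 and 1393 rises and 1027 and 1031 falls at an unadjusted p under 0.05 and the intronic test had 47 falls each time. With a replicate block the ratio test called 1127 rises and 15 falls, the intronic test 1126 and 51, the spliced test 1706 and 1270 and the within-gene test 392 and 131, although the libraries share only a number (correlation of same-numbered deviations 0.0193 for spliced and -0.00289 for intronic reads). With TMM scaling of each kind of read PTPN1 turned to -0.21, SMS to -1.19 and WDR53 to -0.56. Within genes PSMD7 turned to -0.52 against the second to last intron. Uncalled within-gene differences also turned on leaving out each library, with ranges of -0.15 to 0.36 in MTHFD2, -0.32 to 1.24 in SMS, -0.14 to 0.71 in PTPN1, -1.49 to 0.51 in THOC3 and -4.28 to 0.35 in PGAM1. Of the other comparisons for named introns, 1066 kept direction and side of the threshold, 52 lost the call and 16 gained it. The cause was not tested. Having 2 libraries a group and few intronic reads limit single introns, and the exon annotation limits what counts as intronic.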
